A study of Penicillium oxalicum with 18 samples.

Results

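The genes described are bgl1 (PDE_02736) and bgl2 (PDE_00579), a pair of β-glucosidase genes of the filamentous fungus Penicillium oxalicum. They were taken by locus tag, with no threshold on their values though with earlier results of these data known, and are 2 of the 9261 identifiers in the table of transcript levels. Both passed the filter on low values that left 8390 genes for testing. The table holds locus tags only, and gene names used here come from published work on strain 114-2.

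Mycelium of the wild-type strain 114-2 and of a nag3 deletion strain was compared in 3 media, to ask how loss of nag3 affects gene expression on different carbon sources. Precultures of both strains ran for 24 h at 30 °C on 2% glucose, and the mycelium was transferred for another 24 h. The new medium contained 1% bran plus 1% microcrystalline cellulose (bran-cellulose below), 2% glucose or 2% GlcNAc (N-acetylglucosamine, from which chitin is built). Each of the 6 groups held 3 libraries, 18 in all. The sources used here do not say whether the deletion strain was 1 clone or whether replicates were separate cultures, so p-values measure only the spread between these libraries, which may be technical.

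Cellulose is degraded by the joint action of endoglucanases, cellobiohydrolases and β-glucosidases. The first of these cut the chain, cellobiohydrolases release cellobiose from its ends, and β-glucosidases split cellobiose and short cellodextrins into glucose. The bgl1 product is secreted and works outside the cell. The bgl2 product stays inside the cell, where it splits cellodextrins taken up by transporters. Cellobiose and related sugars are known as inducers of cellulase genes in filamentous fungi, and β-glucosidases remove them.

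Levels are given in FPKM, fragments per gene scaled by gene length and library size. FPKM sums ran from 920824 to 1083828 per library, and the read depth is unknown. The single most abundant gene took up to 3.77% of the FPKM sum on glucose, 6.69% to 8.33% on bran-cellulose, 8.25% to 9.86% on GlcNAc in the wild type and 12.7% to 14.4% on GlcNAc in the deletion. The table pairs no locus tag with the name nag3, and the deletion was not checked by its own transcript here. Tests were made with limma on log2(FPKM + 1), and a gene is said to have risen or fallen when its Benjamini-Hochberg adjusted p was under 0.05 and its log2 difference was at least 1 in size.

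bgl1 was an abundant transcript in every group, and its level varied gradually between them. On bran-cellulose it was at 515.38, 558.24 and 592.61 FPKM in the deletion and at 419.25, 447.17 and 393.03 FPKM in the wild type. On glucose it was at 347.55, 353.22 and 350.42 FPKM in the deletion and at 244.39, 288.22 and 198.32 FPKM in the wild type. On GlcNAc it was at 181.96, 167.19 and 175.79 FPKM in the deletion and at 112.65, 123.05 and 121.36 FPKM in the wild type. The groups therefore followed each other in the order bran-cellulose, glucose, GlcNAc, with the deletion above the wild type at each step.

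No library of bgl1 overlapped with a library of the neighbouring group in this order. The closest neighbours were wild-type glucose, with a lowest library of 198.32 FPKM, and deletion GlcNAc, with a highest library of 181.96 FPKM. Such a separation of all 6 groups was found for 62 of the 8390 genes (0.739%). All 5 pairs of neighbours also stayed apart under median-ratio scaling and under quantile normalization, 2 settings added after the values were seen. By rank within a library, bgl1 stood between the 271st and 304th most abundant identifier in deletion bran-cellulose libraries and between the 1182nd and 1280th in wild-type GlcNAc libraries.

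bgl2 was abundant on bran-cellulose only. There it was at 1203.09, 1521.01 and 1557.74 FPKM in the wild type and at 1153.99, 1375.29 and 1386.52 FPKM in the deletion. On glucose it was at 7.49, 7.28 and 8.37 FPKM in the wild type and at 26.16, 33.17 and 20.07 FPKM in the deletion. On GlcNAc it was at 11.39, 9.9 and 10.62 FPKM in the wild type and at 11.02, 9.19 and 11.41 FPKM in the deletion. The bran-cellulose libraries of the 2 genotypes overlapped, as did the GlcNAc libraries, whereas the 3 deletion libraries on glucose lay above every other library grown on a single sugar. How many genes share that last separation was not counted. On glucose alone, the deletion lay above the wild type without overlap for 26.1% of the 8390 genes.

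In order of the group means, wild-type bran-cellulose (1427 ± 195 FPKM, SD, n = 3) was followed by deletion bran-cellulose (1305 ± 131) and then, 49.3-fold lower, by deletion glucose (26.47 ± 6.56). Wild-type GlcNAc (10.64 ± 0.745) and deletion GlcNAc (10.54 ± 1.19) did not differ beyond their spread. Wild-type glucose (7.71 ± 0.578) had the lowest mean. Its highest library (8.37 FPKM) was close to the lowest of deletion GlcNAc (9.19 FPKM), and how many genes separate in this way was not counted. Under median-ratio scaling deletion GlcNAc and wild-type glucose overlapped and the GlcNAc groups did not, while the order of the means was the same. The deletion glucose group had the widest spread of the 6, with a coefficient of variation of 24.8% against 7.01% to 13.7% in the others. bgl2 went from the 85th to 129th most abundant identifier on bran-cellulose in the wild type to between the 6450th and 6556th on glucose.

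**Figure D1:**
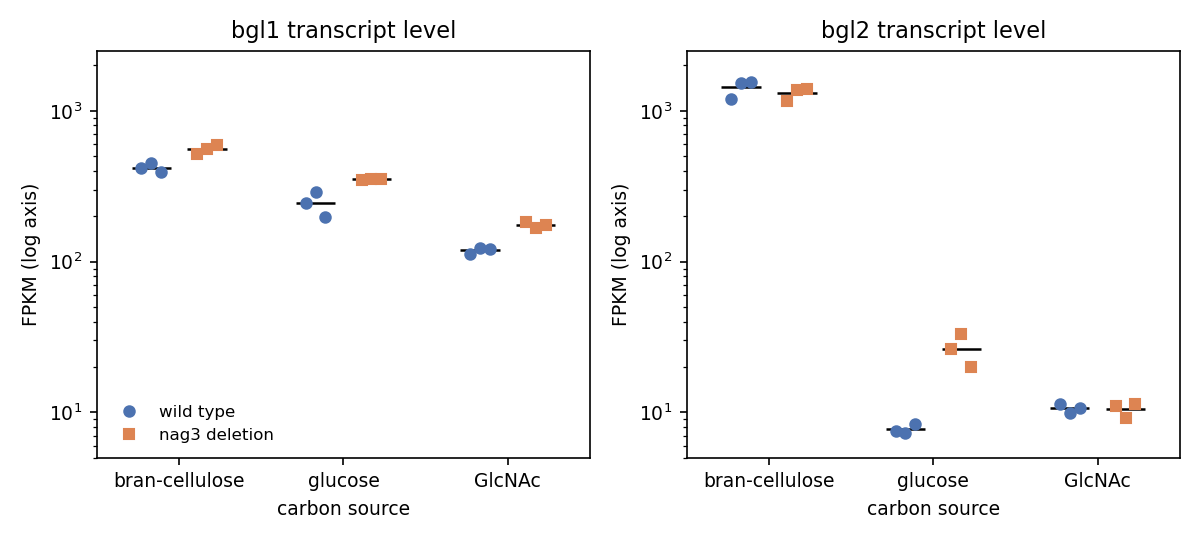
Transcript level of bgl1 (left) and bgl2 (right) in FPKM on a log axis, by carbon source, in 18 libraries. Circles are wild-type libraries, squares are nag3 deletion libraries and black lines are group means (n = 3). bgl1 lies higher in the deletion in each medium, while bgl2 differs between genotypes on glucose and is at 1153.99 FPKM or more on bran-cellulose in both.

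The span between the highest and lowest group mean was a log2 of 2.21 for bgl1 and 7.35 for bgl2, against a median of 1.22 over the 8390 genes. A larger span than that of bgl2 was found for 1.31% of genes, and a larger span than that of bgl1 for 23.7%. For the cellulase genes the span was 9.36 for cel7A-2 (a cellobiohydrolase), 7.73 for cel6A (a cellobiohydrolase), 7.43 for cel5B and 5.93 for cel7B (both endoglucanases). The intracellular enzyme's gene thus had a span within the range of the cellulase genes, and that of the secreted enzyme lay below all 4 of them.

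bgl2 rose on bran-cellulose in both genotypes. In the wild type its mean was 185-fold higher than on glucose (log2 difference 7.35, SE 0.15, limma adjusted p = 4.91e-14). Only 5 of the 8390 genes had a higher log2 difference in this comparison, in which 10.8% of genes rose. In the deletion the mean was 49.3-fold higher (5.59, SE 0.15, limma adjusted p = 6.35e-13), where 12.4% of genes rose and 95 genes had a higher log2 difference. Against GlcNAc, bgl2 rose by a log2 of 6.93 in the wild type and 6.82 in the deletion, in comparisons in which 12.2% and 11.4% of genes rose.

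bgl1 was 1.72-fold higher on bran-cellulose than on glucose in the wild type and 1.59-fold higher in the deletion. These differences passed the adjusted p but not the fold threshold (log2 0.80, SE 0.11, limma adjusted p = 2.45e-05, and 0.66, SE 0.11, limma adjusted p = 9.72e-05). An adjusted p under 0.05 at any size, in the same direction, was found for 35.7% and 32.9% of genes, so differences of this kind were common in both comparisons. Against GlcNAc, bgl1 rose 3.53-fold in the wild type (log2 1.81) and 3.17-fold in the deletion (1.66), which 5.27% and 6.26% of genes exceeded.

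Between the 2 sugars, bgl1 was lower on GlcNAc by about the same amount in both genotypes. In the wild type it fell by 1.01 on the log2 scale (SE 0.11, limma adjusted p = 1.37e-06), in a comparison in which 14.7% of genes fell. In the deletion the log2 difference was -0.9985 (SE 0.11, limma adjusted p = 1.02e-06), just short of the fold threshold, and 15.3% of genes fell. The wild-type call ended without wild-type glucose replicate 2 (-0.88) or wild-type GlcNAc replicate 1 (-0.97), with a pseudocount of 5 FPKM (-0.99) and under median-ratio (-0.99) or quantile scaling (-0.90). The deletion's value passed the threshold without deletion glucose replicate 1 (-1.004), GlcNAc replicate 1 (-1.03) or GlcNAc replicate 3 (-1.002), with a pseudocount of 0.1 FPKM (-1.002) and under median-ratio (-1.13) or quantile scaling (-1.09). In every one of the 14 alternatives tried for each genotype the adjusted p stayed under 0.05.

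bgl2 went in different directions in the 2 genotypes between the sugars. In the wild type it was 1.38-fold higher on GlcNAc than on glucose (log2 difference 0.42, SE 0.15, limma adjusted p = 0.0271), below the fold threshold, and 30.8% of genes were higher by adjusted p at any size. In the deletion it fell 2.51-fold (-1.23, SE 0.15, limma adjusted p = 4.43e-06). There 15.3% of all genes fell, and 13.3% had a lower log2 difference than bgl2. The wild-type difference no longer passed the adjusted p in 4 of 6 fits without 1 library: those without wild-type glucose replicate 1 or 2 and those without wild-type GlcNAc replicate 1 or 3. It also missed it with a pseudocount of 5 FPKM, and the highest limma adjusted p over 14 alternatives was 0.0840. The call in the deletion held in all 6 fits without 1 library (-1.41 to -1.06) and ended with a pseudocount of 5 FPKM (-0.9996).

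**Figure D2:**
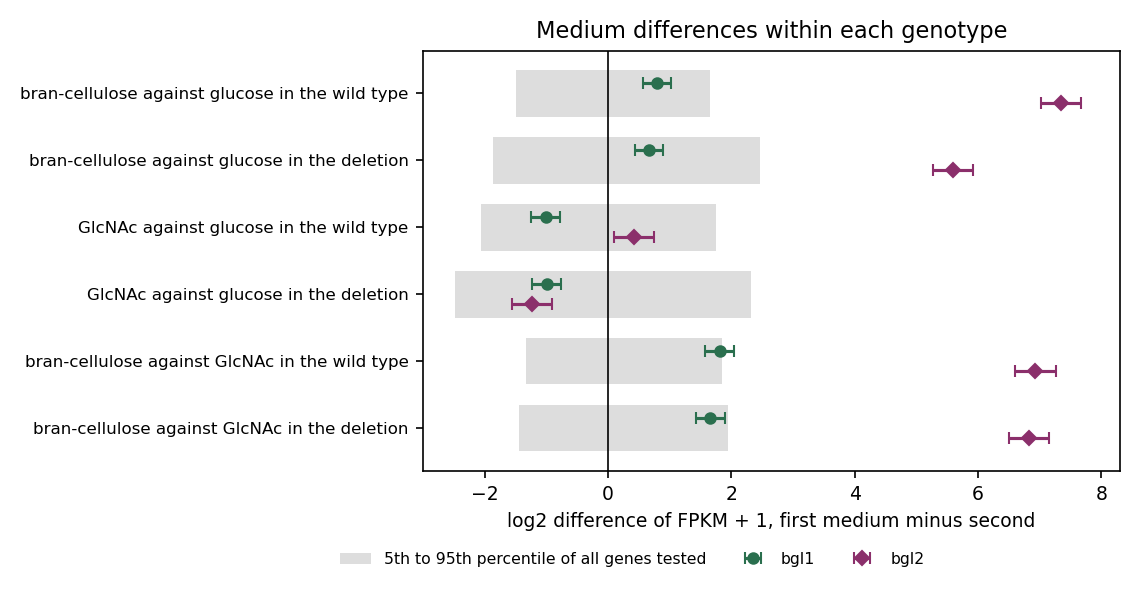
Log2 differences of FPKM + 1 between media within each genotype, with bgl1 as circles and bgl2 as diamonds (bars are 95% confidence intervals from limma, n = 3 per group). Grey bars span the 5th to the 95th percentile of all genes tested. bgl2 lies far outside the grey bar in each comparison with bran-cellulose (5.59 to 7.35), and bgl1 lies inside it in all 6.

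The effect of the nag3 deletion on bgl1 was a modest difference in the same direction in all media. The deletion mean was 1.32-fold higher on bran-cellulose (log2 difference 0.40, 95% interval 0.17 to 0.63), 1.44-fold higher on glucose (0.54, 0.31 to 0.77) and 1.47-fold higher on GlcNAc (0.55, 0.32 to 0.78). It passed on glucose (limma adjusted p = 0.00131) and on GlcNAc (limma adjusted p = 0.000389) but not on bran-cellulose (limma adjusted p = 0.179). None reached the fold threshold, which 0.191%, 4.91% and 16.7% of genes passed upwards on bran-cellulose, glucose and GlcNAc. At any size, 22% of genes on glucose, 41.1% on GlcNAc and 0.393% on bran-cellulose passed the adjusted p in this direction.

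The background of these differences was not the same in the 3 media. The median log2 difference of all genes was 0.0015 on bran-cellulose, 0.09 on glucose and 0.20 on GlcNAc, and bgl1 was exceeded by 5.09%, 15.2% and 32.8% of genes. Under median-ratio scaling, which moved the median of all genes by -0.20 on GlcNAc, bgl1 was at 0.39, 0.45 and 0.31, and on GlcNAc it still passed (limma adjusted p = 0.0192). On glucose the adjusted p was missed in the fit of only those 6 libraries (limma adjusted p = 0.0600), and on bran-cellulose it was passed with array weights (log2 0.34, limma adjusted p = 0.0187; 0.0187 to 0.561 over 14 alternatives).

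Taken over the 3 media, bgl1 was higher in the deletion by a log2 of 0.50 (SE 0.06, limma adjusted p = 9.73e-06), which is below the fold threshold. In this comparison 3.4% of genes rose and 37.5% were higher by adjusted p at any size. With genotype labels permuted within each medium, the exact two-sided permutation p was 0.00025, the smallest that the 8000 assignments can give. Any gene whose deletion libraries all lie above the wild-type ones in each medium gets this p, whatever the size of the difference. Within 1 medium an exact test of 3 against 3 cannot go below 0.1, and bgl1 gave 0.1 in each. The 3 deletion libraries lay above the 3 wild-type libraries in each medium, which was so for 207 of the 8390 genes (2.47%), and in single media for 9.88% on bran-cellulose, 26.1% on glucose and 43.1% on GlcNAc. The genotype difference of bgl1 was not shown to vary between media. Set against glucose it differed by -0.14 on bran-cellulose (95% interval -0.46 to 0.19, limma adjusted p = 0.580) and by 0.013 on GlcNAc (-0.31 to 0.34, limma adjusted p = 0.952). Between bran-cellulose and GlcNAc it differed by -0.15 (limma adjusted p = 0.440). Of 20 alternatives for that last contrast, 1 passed the adjusted p, the fit with array weights (limma adjusted p = 0.0432).

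For bgl2, the effect of the deletion depended on the medium. On glucose it rose 3.43-fold in the deletion (log2 difference 1.63, SE 0.15, limma adjusted p = 1.44e-06), in a comparison in which 4.91% of genes rose and 2.17% had a higher log2 difference. On bran-cellulose the difference was -0.12 (95% interval -0.45 to 0.20, limma adjusted p = 1) and on GlcNAc it was -0.015 (-0.34 to 0.31, limma adjusted p = 0.942). The call on glucose held in all 14 alternatives (log2 differences 1.29 to 1.81).

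The difference between media was itself tested. The genotype difference of bgl2 was lower on bran-cellulose than on glucose by a log2 of -1.75 (SE 0.22, limma adjusted p = 5.44e-05) and lower on GlcNAc than on glucose by -1.65 (SE 0.22, limma adjusted p = 1.90e-05). Of all genes 4.17% and 11% were called lower in these comparisons. Between bran-cellulose and GlcNAc it differed by -0.11 (95% interval -0.57 to 0.35, limma adjusted p = 0.703), where 15.3% of genes were called lower. As a mean over the 3 media bgl2 was higher in the deletion by 0.50 (limma adjusted p = 0.000228), with single values of -0.12, 1.63 and -0.015, and the exact test with labels permuted within media gave p = 0.0788. In RNA from whole mycelium, more expressing hyphae and more RNA per hypha cannot be told apart, here and in the other comparisons.

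**Figure D3:**
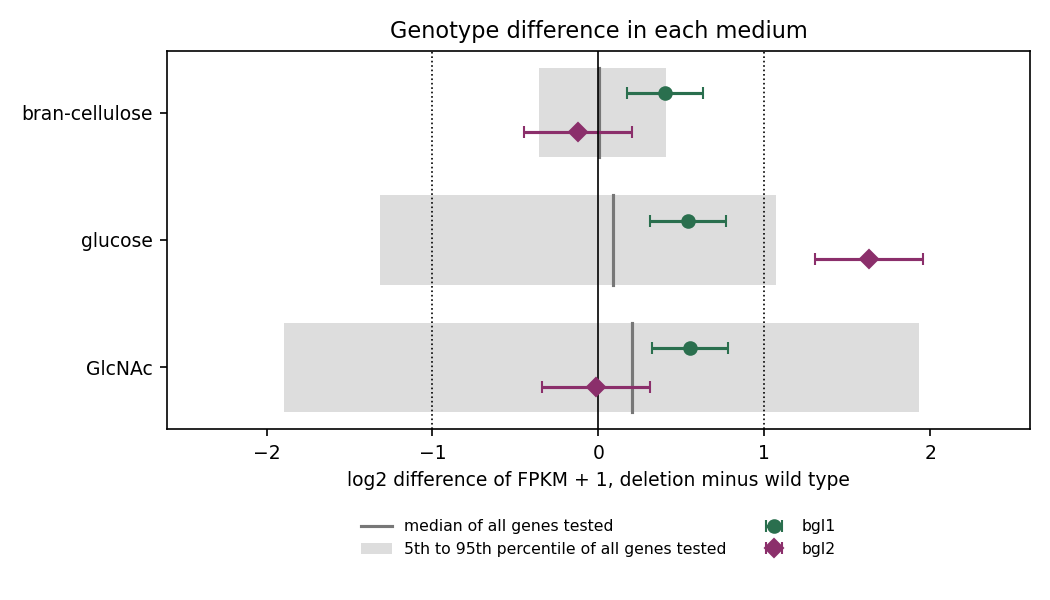
Log2 difference of FPKM + 1, deletion minus wild type, in each medium, for bgl1 (circles) and bgl2 (diamonds) with 95% confidence intervals from limma (n = 3 per group). Grey bars span the 5th to the 95th percentile of all genes tested, grey lines mark their median and dotted lines mark the fold threshold of 1. bgl1 lies between 0.40 and 0.55 in all media, and bgl2 lies beyond the threshold on glucose only.

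Because both genes are measured in 1 library, their ratio does not depend on scaling that library by 1 factor, apart from the offset of 1 FPKM in the tests. Quantile normalization is not such a scaling and can change the ratio. The labels describe tag libraries while the table is divided by gene length, so the ratio's absolute size depends on that division and its change between groups does not. On bran-cellulose bgl2 exceeded bgl1 in every library, by 2.87, 3.40 and 3.96 times in the wild type and by 2.24, 2.46 and 2.34 times in the deletion. On glucose bgl1 exceeded bgl2 by 32.6, 39.6 and 23.7 times in the wild type and by 13.3, 10.6 and 17.5 times in the deletion. On GlcNAc it did so by 9.89, 12.4 and 11.4 times in the wild type and by 16.5, 18.2 and 15.4 times in the deletion. The genotypes did not overlap in any medium, and how many other gene pairs separate in this way was not counted. Among single genes, the deletion lay above the wild type without overlap for 9.88% on bran-cellulose, 26.1% on glucose and 43.1% on GlcNAc. These shares count the upward direction only, while the ratio of bgl2 to bgl1 was lower in the deletion on bran-cellulose and GlcNAc. Genes that separate downwards add to them.

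The ratio of bgl2 to bgl1 was lower in the deletion on bran-cellulose (log2 difference -0.53) and on GlcNAc (-0.57) and higher on glucose (1.09). On bran-cellulose and GlcNAc the level of bgl1 alone was higher in the deletion by 0.40 and 0.55. Each comparison of the ratio, 3 against 3, gave the smallest p an exact permutation test allows, 0.1, and none can reach 0.05. Over the 3 media the differences cancelled (-0.0010, exact permutation p = 0.995).

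The other genes of cellulose and xylan degradation and its control, 8 in a list chosen with earlier results known, give the setting for these values. All 4 cellulase genes rose on bran-cellulose against glucose in both genotypes, with a median log2 difference of 7.05 in the wild type and 6.23 in the deletion, against medians over all genes of 0.16 and 0.09. The xylanase gene xyn10A (PDE_08094) rose in both, and clrB (PDE_05999), an activator of cellulase genes, rose in the wild type. creA (PDE_03168, the carbon catabolite repressor) and xlnR (PDE_07674), which activates genes of xylan and cellulose degradation, were not called in either genotype.

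The genotype differences of the cellulase genes are given beside those of the β-glucosidase genes, and no test compared them. On bran-cellulose the median log2 difference of the 4 cellulase genes was -0.64, with none called and 2 past the adjusted p, beside 0.40 for bgl1 and -0.12 for bgl2. Only 27 of the 8390 genes passed the adjusted p downwards at any size in this comparison. The xylanase gene xyn10A fell in it (-1.07, limma adjusted p = 0.000260), 1 of 17 genes that did. On glucose none of the 4 cellulase genes was called (median 0.14), while bgl2 rose by 1.63. On GlcNAc, where 16.7% of all genes rose and their median was 0.20, 2 of the 4 cellulase genes, cel7A-2 and cel6A, rose (median 0.99). Levels there were low: cel7A-2 was at 2.48 FPKM in the wild type and 9.11 FPKM in the deletion, against 2277 and 1495 FPKM on bran-cellulose. For cel6A the means were 4.67 and 11.17 FPKM, against 1192 and 631 FPKM. The log2 difference of bgl1 on GlcNAc was 0.55, below those of all 4 cellulase genes (0.61 for cel7B to 1.54 for cel7A-2), and that of bgl2 was -0.015. Of the 3 regulator genes clrB and creA rose on GlcNAc. Under either scaling alternative 1 of the 4 cellulase genes and 1 of the 3 regulator genes was called. None was called on glucose, where clrB (0.83, limma adjusted p = 0.000489) passed the adjusted p.

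A ratio of bgl1 to the summed FPKM of the 4 cellulase genes was added after the values were seen. The division by gene length sets the weight of each gene in the sum, so both the size of this ratio and its change between groups depend on it. On bran-cellulose the sum was 4565.51, 5358.05 and 5172.27 FPKM in the wild type and 2996.59, 3592.66 and 3224.74 FPKM in the deletion. The sum was 10.89, 11.98 and 13.16 times bgl1 in the wild type and 5.81, 6.44 and 5.44 times bgl1 in the deletion, without overlap. The sum alone was lower in the deletion without overlap, so a gene of unchanged level would also separate against it. How many other genes do so was not counted. In this medium bgl1 relative to this sum was higher in the deletion by a log2 of 1.02 (exact permutation p = 0.1, the smallest possible). On glucose and GlcNAc bgl1 exceeded the sum in every library. The ratio of bgl1 to the sum was 10.02 ± 1.31 in the wild type and 12.8 ± 0.783 in the deletion on glucose, and 6.60 ± 0.801 and 4.34 ± 0.255 on GlcNAc, so that the genotype difference had the opposite sign on GlcNAc.

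**Figure D4:**
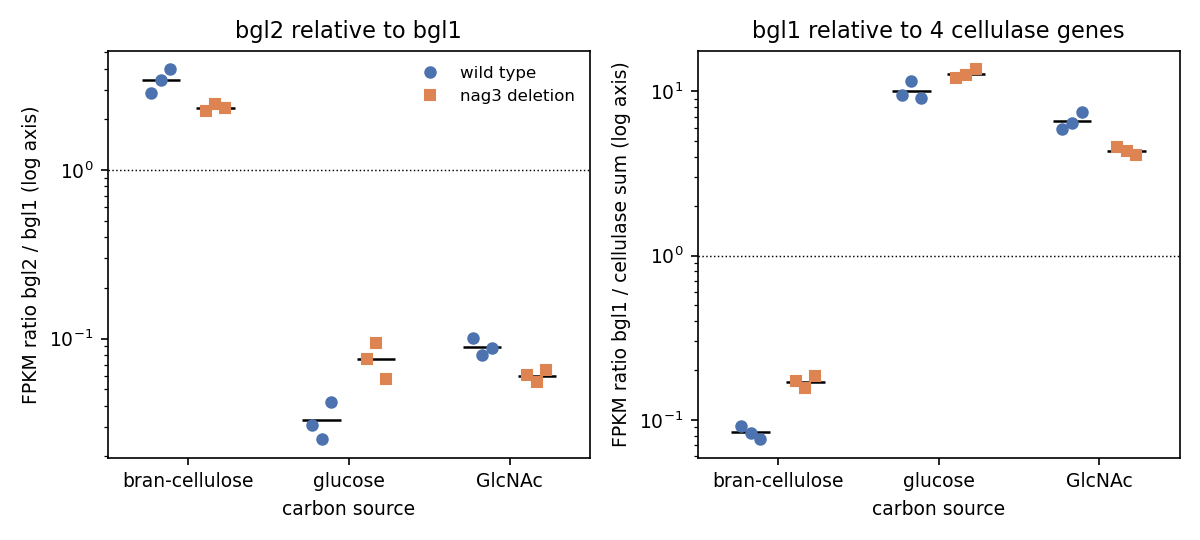
FPKM ratio of bgl2 to bgl1 (left) and of bgl1 to the sum of the 4 cellulase genes (right) in each of 18 libraries, on log axes. Circles are wild type, squares are deletion, black lines are group means (n = 3) and the dotted line marks a ratio of 1. bgl2 exceeds bgl1 on bran-cellulose only, and bgl1 is below the cellulase sum on bran-cellulose only.

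Likeness of pattern was measured as the root mean square difference between the 6 group means of log2(FPKM + 1), each gene centred on its own mean, over all 8389 other genes. For bgl2 the 2 nearest identifiers were PDE_00607 (0.22) and PDE_07928 (0.41), against a median of 3.17 over all genes. PDE_00607 was at 3309 ± 370 and 2847 ± 309 FPKM on bran-cellulose in the wild type and the deletion, at 15.67 ± 2.80 and 44.4 ± 15.7 on glucose, and at 16.42 ± 2.14 and 20.61 ± 1.38 on GlcNAc. Like bgl2, it was high on bran-cellulose and, among the groups on a single sugar, highest in deletion glucose. This resemblance follows from the choice of PDE_00607 by its nearness over these same group means. cel6A (0.56) and cel5B (0.61) stood 3rd and 4th in this order, cel7B (0.91) 6th and cel7A-2 (1.09) 13th.

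For bgl1 the nearest identifiers were PDE_00774 (0.16) and PDE_01467 (0.21), against a median of 0.84 over all genes. PDE_00774 was at 48.18 ± 1.79 and 58.17 ± 5.82 FPKM on bran-cellulose in the wild type and the deletion, at 28.20 ± 1.91 and 38.4 ± 8.24 on glucose, and at 12.46 ± 0.599 and 25.19 ± 2.11 on GlcNAc. PDE_01467 was low, with group means from 0.570 to 3.62 FPKM, where the offset of 1 FPKM compresses differences. Among the listed genes creA (0.43) stood 145th and clrB (0.56) 572nd in the order for bgl1. bgl2 itself stood 8230th, and the 4 cellulase genes stood between 8059th and 8355th. Likeness over 6 group means is a description, and the measure favours genes of similar span.

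**Figure D5:**
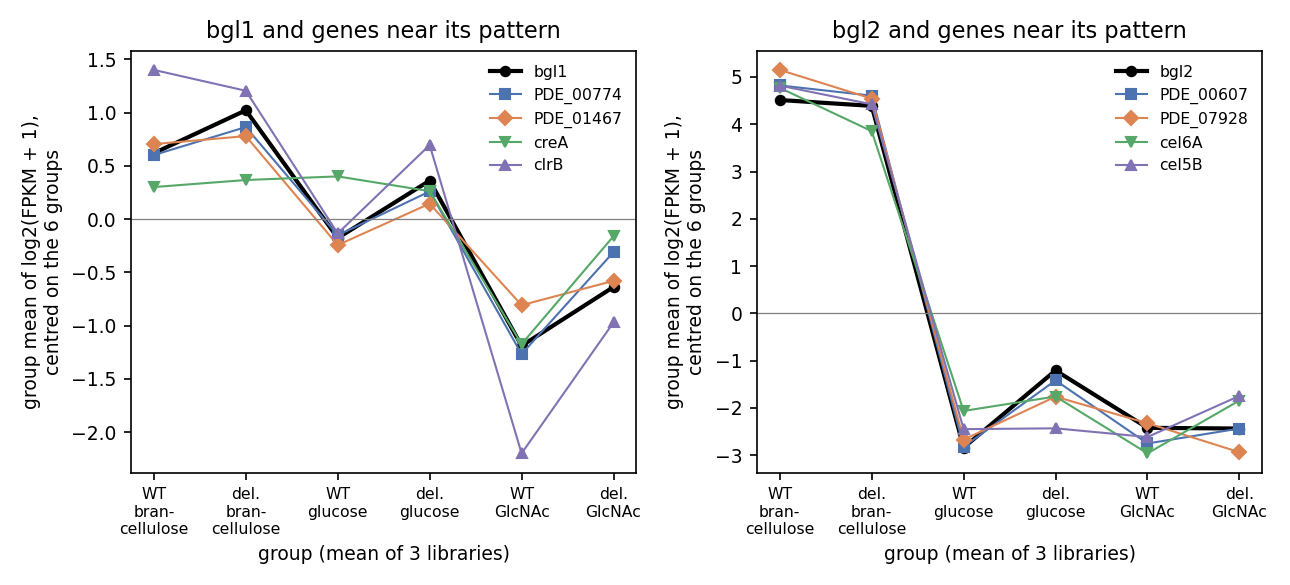
Group means of log2(FPKM + 1), centred on the 6 groups, for bgl1 (left, black) and bgl2 (right, black) with the 2 nearest identifiers and 2 listed genes each; every point is a mean of 3 libraries, WT is wild type, del. is deletion, and lines only connect the points of 1 gene. bgl2 and PDE_00607, which was picked for its nearness over these means, share the high bran-cellulose values and the raised deletion glucose value. bgl1 falls in steps from bran-cellulose to GlcNAc with the deletion above the wild type.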

How the data were processed

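The authors deposited 1 table of FPKM values with 2 decimals for 9261 identifiers in 18 libraries, per the file headers; its unit is fragments per gene scaled by length and by mapped fragments. Per the labels' protocols, the libraries were NlaIII and MmeI tag libraries. Which aligner, counter, genome build and annotation were used is not given in the sources used here. Every column was matched to its sample by name. None of the 9261 identifiers matched the reference gene table at hand (assembly ASM172317v3, of another strain), so no sequence or coordinate is given.

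FPKM values were used as deposited. A gene was tested if 3 or more libraries reached 1 FPKM (8390 genes). limma 3.58.1 in R 4.3.3 was fitted to log2(FPKM + 1) of all 18 libraries, with a mean for each group and a trended prior variance; this scale understates changes of low genes; p-values were two-sided and adjusted by Benjamini-Hochberg over 8390 genes in each of 13 comparisons. Exact permutation tests over libraries were used for ratios and single levels. Alternatives were pseudocounts of 0.1 and 5 FPKM, no filter, median-ratio and quantile scaling, array weights, a replicate block, a fit of only the groups compared, no fold threshold and leaving out each library.

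Genes named were bgl1, bgl2, 8 listed pathway genes and, for each member, the 2 identifiers nearest in pattern. The members and lists were chosen with earlier results of these data known. Figures were drawn with matplotlib 3.10.9.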

Additional observations from a re-analysis of the deposited data

Results flagged for a closer look

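The genotype difference of bgl2 differed between media in a test of that difference. It was lower on bran-cellulose than on glucose by a log2 of -1.75 and lower on GlcNAc than on glucose by -1.65 (limma adjusted p = 5.44e-05 and 1.90e-05). Both comparisons share the 6 glucose libraries, in which the deletion was at 20.07 to 33.17 FPKM and the wild type at 7.28 to 8.37 FPKM. Leaving out 1 library at a time, the first ran from -1.93 to -1.58 and the second from -1.82 to -1.47. The part played by the wider spread of the deletion glucose libraries was not tested.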

How the results depend on the processing

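Every difference in bgl2 on bran-cellulose against a sugar, and its rise in the deletion on glucose, kept its call under all alternatives; calls near the fold threshold did not. With the adjusted p at any size, bgl1 passed for the deletion on glucose (0.54) and GlcNAc (0.55) and over 3 media (0.50), for bran-cellulose against glucose (0.80 and 0.66) and for GlcNAc in the deletion (-0.9985), and bgl2 passed over 3 media (0.50) and for GlcNAc in the wild type (0.42). For GlcNAc against glucose, bgl1 in the wild type was no longer called with a pseudocount of 5 FPKM (-0.99), median-ratio (-0.99) or quantile scaling (-0.90), and ran from -1.15 to -0.88 without 1 library. In the deletion it was called with a pseudocount of 0.1 FPKM (-1.002), median-ratio (-1.13) and quantile scaling (-1.09) and ran from -1.03 to -0.97, while bgl2 lost its call with a pseudocount of 5 FPKM (-0.9996). Signs turned only for values near 0: bgl2 in the deletion on GlcNAc with array weights (0.039; -0.070 to 0.072 without 1 library), the GlcNAc against glucose genotype difference of bgl1 under median-ratio (-0.14) and quantile scaling (-0.19; -0.12 to 0.15), the bran-cellulose against GlcNAc one of bgl1 (0.085 and 0.020) and bgl2 (0.11 and 0.092), and the bgl2 to bgl1 ratio over 3 media with a pseudocount of 0.1 FPKM (0.032) and median-ratio scaling (0.0090; -0.056 to 0.063). The bran-cellulose against glucose genotype difference of bgl1 ran from -0.27 to 0.0032 without 1 library. The cause was not tested.

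The replicate numbers showed no consistent pairing of the samples (correlations of same-numbered deviations from -0.17 to 0.29, 4 of 27 over 0.1), which cannot exclude pairing. For deletion GlcNAc against deletion glucose the correlations were -0.17, 0.23 and 0.29 for replicates 1, 2 and 3. With the replicate block bgl2 on glucose stayed at 1.63 (limma adjusted p = 8.79e-06) and no call of bgl1 or bgl2 changed.

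Over all genes, calls for the deletion on bran-cellulose numbered 33, or 19 with a pseudocount of 5 FPKM, 66 with array weights and 60 at any size, and over 3 media 632, or 361 with a pseudocount of 5 FPKM. At any size the other counts grew from 927 to 2951 (deletion on glucose), 2299 to 5381 (on GlcNAc), 632 to 4739 (over 3 media), 1570 to 4578, 2185 to 5253 and 1570 to 4037 (wild-type media), 2031 to 4847, 2570 to 5534 and 1688 to 4640 (deletion media), and 801 to 1705, 2206 to 4170 and 2108 to 4205 (differences between media). Among called genes only, median-ratio scaling moved the share that was higher in the deletion from 60.9% to 45.4% on GlcNAc and from 45.1% to 34.7% over 3 media. For wild-type bran-cellulose the share moved from 57.6% to 46.8% against glucose and from 65.1% to 54.7% (53.7% by quantile) against GlcNAc. For the bran-cellulose against GlcNAc genotype difference it moved from 39.0% to 55.1%.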
